A study of Mus musculus with 141 samples.

Results

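The genes that build and run the contractile apparatus of skeletal muscle were followed through RNA-seq of inguinal white adipose tissue (iWAT). A fixed list of 37 genes was taken by symbol from the 36558 genes of the deposited tables, and each of the 37 symbols matched 1 row. The mice belonged to the Hybrid Mouse Diversity Panel (HMDP), a set of inbred and recombinant inbred strains, and received a diet rich in fat and sucrose (HF/HS) from the age of 8 weeks, which lasted 8 weeks and ended with a 4-h fast. The panel holds 67 female and 74 male libraries of 82 strains, with 1 mouse per sex and strain. Both sexes are present in 59 strains, only a female in 8 and only a male in 15. The labels give the tissue as subcutaneous adipose, and no strain or treatment serves as a control group, so the comparisons are between libraries and between the sexes.

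Skeletal muscle contracts when myosin heads of the thick filament pull on actin of the thin filament, a step that troponin allows once calcium has been released. *Ryr1* encodes the channel that lets calcium out of the sarcoplasmic reticulum, *Atp2a1* encodes the pump SERCA1 that returns it, and sarcolipin, the product of *Sln*, is a small inhibitor that makes the pump spend ATP without moving calcium. Fast and slow fibres use different isoforms of most of these proteins, so that the isoforms present in a sample describe the kind of fibre they came from. In fat, the same calcium cycle has been studied as a route of heat production that does not need *Ucp1*.

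The genes lie on many chromosomes. In the GRCm38 build, the fast myosin heavy chain genes *Myh2* (chr11:67171027-67197517), *Myh1* (chr11:67200052-67224575) and *Myh4* (chr11:67238029-67260446) are neighbours on the plus strand. *Ckm* (chr7:19404776-19422841), *Ryr1* (chr7:29003344-29125179) and *Atp2a1* (chr7:126445858-126463108) share a chromosome without being neighbours, *Acta1* is at chr8:123891769-123894751 and *Sln* at chr9:53850164-53854560. The promoters of 5 genes are shown because the genes behind them fall on both sides of the main pattern below: *Myh4*, *Ckm* and *Atp2a1* were close to absent outside a few libraries, while *Acta1* and *Myl1* had medians of 15.8 and 100.2 TPM. Each line gives the 250 bases before the RefSeq start of the gene in GRCm38.p6, read 5′ to 3′ on the strand of the gene, and capitals mark matches to CAGCTG, to the MEF2 box or to the CArG box on either strand.
Myh4, chr11:67237562-67237811, plus strand: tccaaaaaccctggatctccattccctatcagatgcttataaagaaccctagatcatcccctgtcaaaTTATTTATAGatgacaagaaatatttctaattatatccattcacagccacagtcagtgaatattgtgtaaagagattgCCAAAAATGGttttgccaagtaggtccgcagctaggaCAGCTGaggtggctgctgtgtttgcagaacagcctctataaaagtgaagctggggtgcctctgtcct
Ckm, chr7:19410844-19411093, plus strand: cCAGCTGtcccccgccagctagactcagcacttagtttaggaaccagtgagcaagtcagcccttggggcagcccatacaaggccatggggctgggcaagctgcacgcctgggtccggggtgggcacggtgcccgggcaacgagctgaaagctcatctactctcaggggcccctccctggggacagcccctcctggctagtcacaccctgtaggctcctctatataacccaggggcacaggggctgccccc
Atp2a1, chr7:126463074-126463323, minus strand: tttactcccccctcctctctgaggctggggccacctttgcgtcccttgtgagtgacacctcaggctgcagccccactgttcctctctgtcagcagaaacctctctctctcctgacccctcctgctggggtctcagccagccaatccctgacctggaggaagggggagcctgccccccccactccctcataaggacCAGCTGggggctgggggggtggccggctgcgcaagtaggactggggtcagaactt
Acta1, chr8:123894776-123895025, minus strand: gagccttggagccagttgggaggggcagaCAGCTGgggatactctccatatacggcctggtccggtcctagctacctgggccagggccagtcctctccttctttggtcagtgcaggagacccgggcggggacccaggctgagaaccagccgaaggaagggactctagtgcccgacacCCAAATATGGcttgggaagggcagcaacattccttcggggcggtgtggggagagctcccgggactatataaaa
Myl1, chr1:66945057-66945306, minus strand: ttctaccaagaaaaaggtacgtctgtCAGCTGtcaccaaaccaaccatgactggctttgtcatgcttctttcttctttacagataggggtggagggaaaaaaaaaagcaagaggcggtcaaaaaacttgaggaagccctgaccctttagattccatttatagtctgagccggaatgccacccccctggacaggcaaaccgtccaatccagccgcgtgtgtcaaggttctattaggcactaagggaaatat
The hexamer CAGCTG, one form of the E-box that myogenic factors bind, was present in 12 of the 29 members with an entry in the RefSeq table, and in 12.8% of 27025 promoters of the same length. A MEF2 box was present in 5 of the 29 members and in 3.01% of all promoters, and a CArG box, the site known for serum response factor, in 4 of the 29 and in 1.40%. The promoter of *Myh4* held all of these motifs, that of *Acta1* held CAGCTG and a CArG box, and those of *Ckm*, *Atp2a1* and *Myl1* held CAGCTG alone. A match is a run of letters and was not tested as a binding site.

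Library totals lay between 6269154 and 78562648 estimated counts (median 30233245). No pair of libraries held identical counts. The shallowest library, BXD34/TyJ female, stood apart from the rest, with 302 TPM of the adipocyte gene *Adipoq*, the lowest of all libraries. Transcripts of 4 genes of the Y chromosome (*Uty*, *Kdm5d*, *Ddx3y*, *Eif2s3y*) went against the label in 3 libraries. They summed to 221 TPM in BXD34/TyJ and 264 TPM in BXD69/RwwJ, both labelled female, and to 4.08 TPM in NZW/LacJ, labelled male. The next females, BXD27/TyJ at 15.4 and AXB19/PgnJ at 14.1 TPM, lay above NZW/LacJ and below all other males, of which the lowest had 57.3 TPM. None of these 3 is among the libraries with high muscle gene levels described below, and only NZW/LacJ is among the 59 strains used to compare the sexes. TPM is a transcript's share of its library after correction for transcript length, so it allows levels of different genes to be set side by side.

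The 37 genes together took a median of 0.0181% of a library's transcripts. The median TPM over the 37 genes was lowest in BXD43/RwwJ male at 0.118, had a median of 0.358 over all libraries and was highest in BXD79/RwwJ female at 110. A median of at least 10 TPM, taken as a muscle level, was reached by 5 libraries: BXD79/RwwJ female at 110, BXA7/PgnJ male at 34.3, BXH8/TyJ male at 20.9, I/LnJ female at 16.1 and BXD11/TyJ male at 13.8 TPM. Just under it were BXD51/RwwJ male at 7.60, SEA/GnJ male at 7.48, BXD87/RwwJ male at 7.47, AXB12/PgnJ female at 6.39 and AXB19a/PgnJ female at 5.88 TPM. The libraries formed a gradient rather than a step, with 12 at 5 TPM or more and 22 at 1 TPM or more. These 22 were 9 female and 13 male libraries. In bulk tissue, more muscle cells and more of these transcripts per cell cannot be told apart.

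BXD79/RwwJ female was the extreme case. Its 37 genes summed to 26181 TPM, or 2.62% of all its transcripts, against 0.543% in BXH8/TyJ male and 0.430% in BXA7/PgnJ male. It held the highest value of 30 of the 37 genes, and the other 7 (*Myh2*, *Myl3*, *Tnnt1*, *Tnni1*, *Tnnc1*, *Actn2* and *Sln*) peaked elsewhere. Its leading transcript was *Tnnt3*, the fast isoform of the troponin subunit that holds the complex on tropomyosin, at 6230 TPM.

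In each of the 10 highest libraries that have a partner of the other sex, the partner was below 1 TPM. BXD79/RwwJ male had a median of 0.327 TPM and ranked 84 in the order of these medians, against 110 TPM in the female. BXA7/PgnJ female had 0.941 TPM and ranked 25, BXH8/TyJ female had 0.491 and I/LnJ male had 0.453 TPM. BXD51/RwwJ female, BXD87/RwwJ female and AXB12/PgnJ male were also low, at 0.270, 0.258 and 0.167 TPM. AXB19a/PgnJ male had 0.626 TPM against 5.88 TPM in the female. BXD11/TyJ and SEA/GnJ have no female library. Further down, both sexes of 2 strains were at 1 TPM or more, with 5.51 TPM in BXD56/RwwJ female and 1.75 in the male, and with 2.08 TPM in C57BL/6J male and 1.81 in the female.

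**Figure D1:**
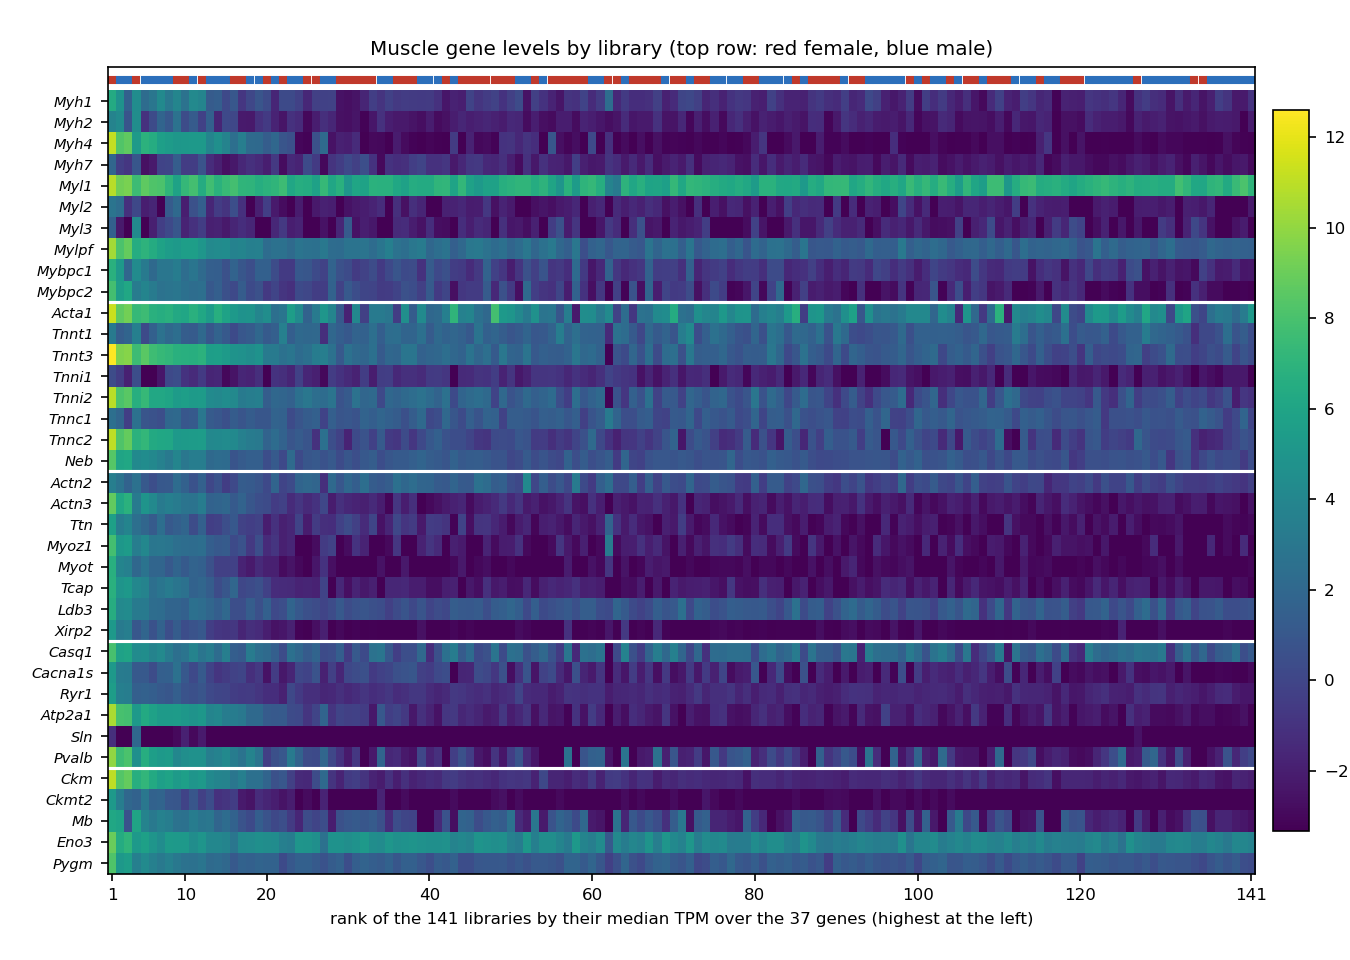
Level of each of the 37 genes (rows, grouped by role from thick filament at the top to energy supply at the bottom) in each library (columns, ranked by their median TPM over the genes), as log2(TPM + 0.1), with the sex of each library in the top row. A few libraries at the left are high for most genes at once, with BXD79/RwwJ female at 110 TPM, while *Myl1* and *Eno3* keep a level across the whole width, *Acta1* varies from 0.117 TPM upwards and *Sln* is at its lowest value nearly throughout.

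Of the 5 cardiac markers, *Myh6*, *Nppa* and *Mybpc3* did not exceed 0.611, 0.116 and 0.414 TPM in any library. The other 2 cardiac markers were present, *Tnni3* with a median of 4.48 TPM and a highest value of 25.8 TPM in AXB12/PgnJ female, and *Tnnt2* with a median of 0.546 TPM and a highest value of 7.88 TPM in BXD38/TyJ female. *Pax7* and *Myf5*, which mark muscle stem cells, summed to 0.267 TPM in BXD79/RwwJ female and had a median of 0 over all libraries. Their highest sum was 2.13 TPM, and both peaked in BXD34/TyJ female, at 0.239 and 1.89 TPM. AXB12/PgnJ female had few adipocyte transcripts, with 6514 TPM summed over 5 markers against a median of 37170 TPM, while the other 9 of the 10 libraries had between 21007 and 60069 TPM. The part of any of these cells in the muscle gene levels was not tested.

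The thick filament genes showed 2 kinds of behaviour. *Myh4*, the heavy chain of the fastest fibres, was 0 TPM at its lowest, 0.0237 TPM at its median and 2302 TPM at its highest, and it had fewer than 3 counts in 70 libraries. *Myl1*, the fast essential light chain, ranged from 9.06 TPM in SWR/J female to 1929 TPM with a median of 100.2, so that it was present in every library. *Mylpf*, the fast regulatory light chain, lay between them with 1.35, 4.32 and 1369 TPM. *Myh1* reached 84.4 TPM from a median of 0.411 and *Mybpc2*, a fast myosin-binding protein, reached 229 TPM from a median of 0.443.

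Among thin filament genes, *Acta1*, skeletal muscle actin, had the highest median and varied widely between libraries. It was 0.117 TPM in MA/MyJ female, 15.8 TPM at its median and 2593 TPM in BXD79/RwwJ female. It reached 232 TPM in BXD43/RwwJ female and 136.1 TPM in AKR/J male. The fast troponin genes *Tnnt3*, *Tnni2* and *Tnnc2* had medians of 3.15, 2.32 and 1.20 TPM and highest values of 6230, 1982 and 2057 TPM. *Neb*, the giant ruler protein of the thin filament, had a median of 1.75 and a highest value of 337 TPM.

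The Z disc genes were mostly silent outside the libraries with high muscle gene levels. *Actn3*, the fast-fibre alpha-actinin, had a median of 0.159 and a highest value of 438 TPM, *Myot* had 0.0238 and 105.9, and *Xirp2* had 0.00479 and 37.6. *Actn2*, which heart and slow fibres also use, behaved otherwise: its highest value, 18.4 TPM, was in I/LnJ male, a library with a median of 0.453 TPM over all the genes. *Ttn* reached 52.9 TPM from a median of 0.132. *Cacna1s*, the voltage sensor that opens the *Ryr1* channel, was 0 at its lowest, 0.243 TPM at its median and 36.9 TPM at its highest. Of the energy genes, *Ckm*, the muscle creatine kinase, rose from a median of 0.273 to 2041 TPM, and *Eno3*, the muscle enolase, was present in every library, at 2.07 TPM or more with a median of 16.4. By these medians, 15 of the 37 genes had at least 1 TPM in the middle library, 17 had from 0.1 to under 1 TPM and 5 (*Myh4*, *Myot*, *Xirp2*, *Sln* and *Ckmt2*) had less.

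**Figure D2:**
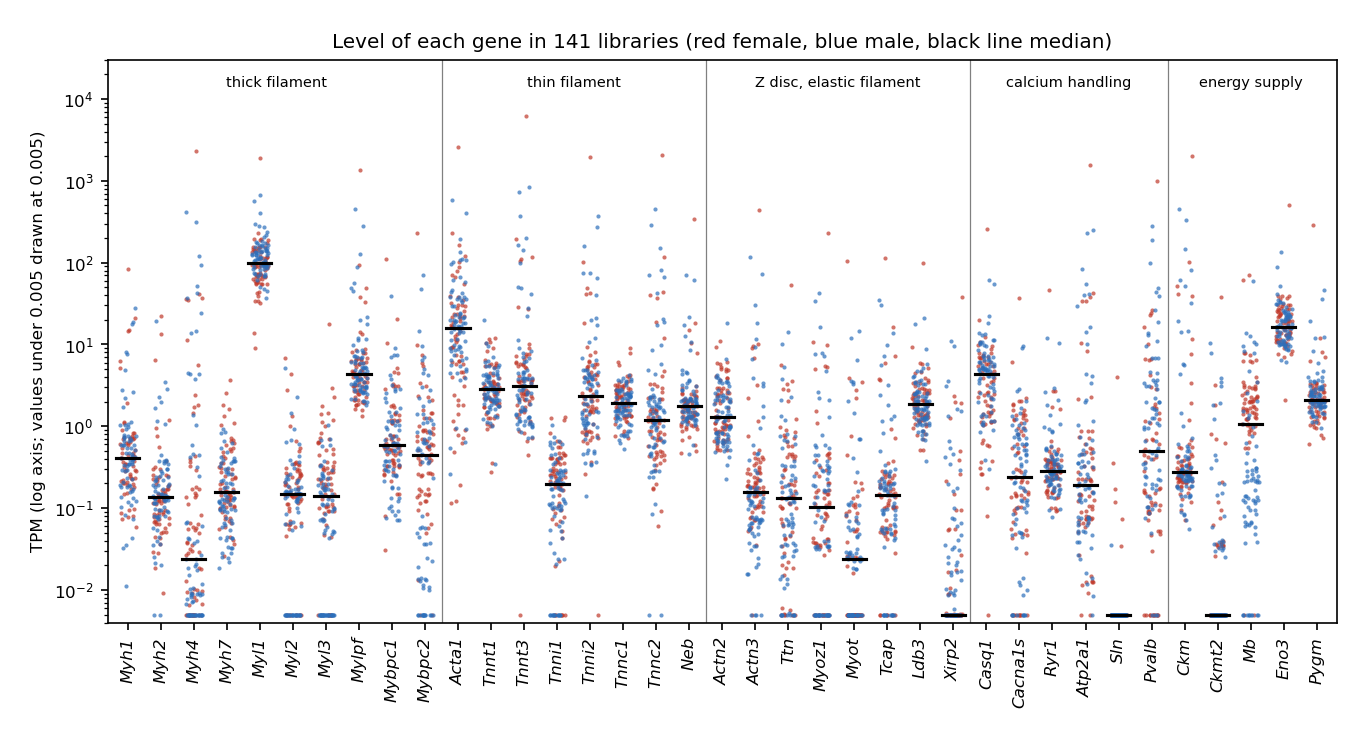
TPM of each gene (horizontal axis, grouped by role) in every library on a log axis, with females in red, males in blue and the median as a black line. The cloud of *Myl1* sits around its median of 100.2 TPM while *Myh4*, *Ckm* and *Atp2a1* have medians under 1 TPM and highest values of 2302, 2041 and 1548 TPM, and the slow genes *Tnnt1*, *Tnni1* and *Tnnc1* have no such upper tail.

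How closely a gene followed *Ckm* was described by its Pearson correlation with *Ckm* in log2(TPM + 0.1) over all libraries. These correlations rest on a few high libraries that all the genes share, and they are given without a test. At least 0.8 was reached by 18 of the other 36 genes, among them *Myh4* at 0.96, *Atp2a1* at 0.95, *Actn3* at 0.95, *Ckmt2* at 0.95, *Tnnt3* at 0.92 and *Ryr1* at 0.87. *Acta1* at 0.56, *Myl1* at 0.52, *Eno3* at 0.57 and 7 others fell between 0.5 and 0.8. The 8 genes below 0.5 were *Casq1* at 0.49, *Sln* at 0.44, *Actn2* at 0.32 and 5 of the 6 slow genes, with *Myh7* just under it, *Myl3* at 0.28, *Tnni1* at 0.26, *Tnnc1* at 0.22 and *Tnnt1* at 0.08.

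*Ckm* itself was at or above 1 TPM in 25 libraries, where it spanned 1.01 to 2041 TPM, and under 1 TPM in the others, where it spanned 0.0549 to 0.725 TPM. This split was chosen after the values were seen and is on *Ckm* itself, so the narrow lower range alone lowers a correlation, and the values are given without a test. In the 25 libraries Pearson's r with *Ckm* was 0.97 for *Acta1*, 0.98 for *Atp2a1*, 0.74 for *Myl1* and 0.25 for *Tnnt1*. In the others it was 0.00 for *Acta1*, 0.37 for *Atp2a1*, -0.28 for *Myl1* and 0.01 for *Tnnt1*.

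**Figure D3:**
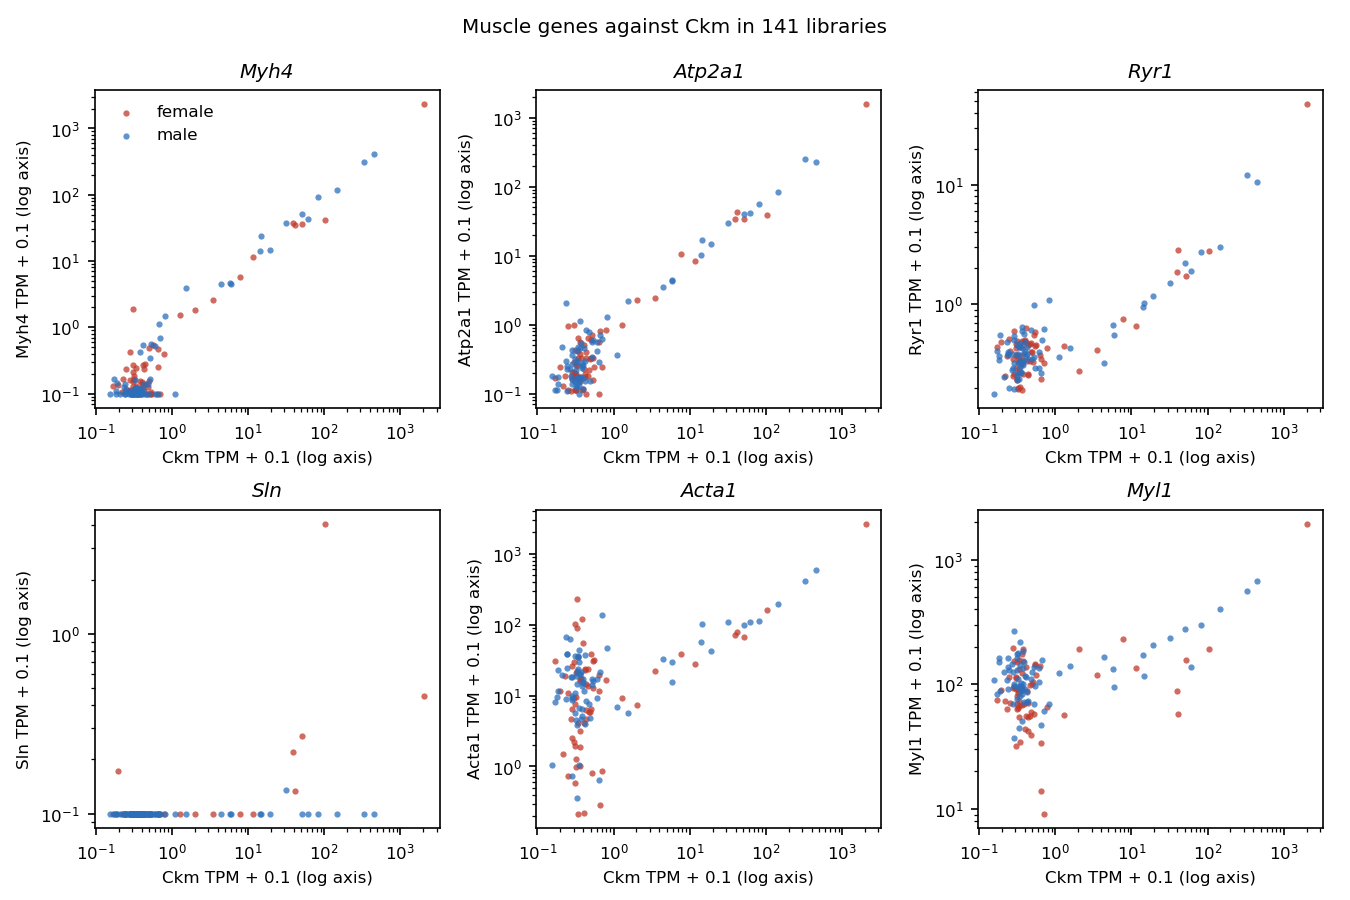
TPM + 0.1 of 6 genes (vertical axes) against that of *Ckm* (horizontal axes), both on log axes, with 1 point for each library, females in red and males in blue. *Myh4*, *Atp2a1* and *Ryr1* rise with *Ckm* above about 1 TPM, *Acta1* spreads from 0.117 to 232 TPM where *Ckm* is low, *Myl1* stays near 100.2 TPM there, and *Sln* leaves its floor in 7 libraries.

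The genes outside the list whose pattern was most like *Acta1* included 2 of the other muscle list described below, *Trdn* and *Jph1*. Over all libraries, and among 14972 genes whose mean reached 1 CPM, the highest Pearson correlations with *Acta1* were those of *Rtn2* at 0.80, *Trdn* at 0.76, *Jph1* at 0.75, *Cavin3* at 0.72 and *Nexn* at 0.72, followed by *Pcbd1*, *Npr3*, *Lep*, *Vgll3* and *Aldh1a1* between 0.71 and 0.69. *Lep* encodes leptin, the hormone that adipocytes release, and had a median of 612 TPM. With *Ckm* in place of *Acta1*, a reference chosen after the values were seen, the 10 genes were led by *Mylk2*, the kinase of skeletal myosin light chain, at 0.92, *Nrap* at 0.90, *Pgam2* at 0.87 and *Eef1a2* at 0.85. Spearman's rho of *Acta1* with *Adipoq* was 0.47 and with *Ucp1* -0.46, while *Ckm* gave -0.08 and -0.18. *Myl1*, *Casq1* and *Ldb3* resembled *Acta1* here, with rho of 0.48, 0.46 and 0.45 to *Adipoq*. These values are descriptions over libraries that share depth and tissue composition.

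A second fixed list of 44 genes of muscle development, membrane systems and metabolism also held genes that followed *Ckm* and genes that did not. Of these, 9 had a correlation with *Ckm* of at least 0.8 (*Myf6*, *Smpx*, *Jsrp1*, *Klhl41*, *Trim63*, *Pgam2*, *Myom2*, *Nrap* and *Hrc*), 9 lay between 0.5 and 0.8 and 26 lay below. BXD79/RwwJ female held the highest value of 28 of the 44. *Myod1* and *Myog*, the factors that start muscle differentiation, did not exceed 0.411 and 0.382 TPM in any library, and *Myf6*, the factor of mature fibres, reached 10.5 TPM. *Atp2a2*, the calcium pump of slow fibres and of most other cells, was at 65.3 TPM at its median, reached 110 TPM in KK/HlJ female and had a correlation of -0.09 with *Ckm*.

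Fast isoforms dominated wherever muscle genes were high. Of the summed TPM of *Myh4*, *Myh1*, *Myh2* and *Myh7*, the share of *Myh4* was 95.8% in BXD79/RwwJ female, 86.7% in BXA7/PgnJ male, 98.8% in BXH8/TyJ male, 47.4% in I/LnJ female and 95.7% in BXD11/TyJ male. In the next libraries of the ranking it was 91.4% in BXD51/RwwJ male, 69.1% in SEA/GnJ male, 79.4% in BXD87/RwwJ male, 58.96% in AXB12/PgnJ female and 81.7% in AXB19a/PgnJ female. *Myh7*, the slow heavy chain, took from 0.0503% in BXD11/TyJ male to 4.31% in AXB12/PgnJ female. *Myh4* led in all 10, although the myosin heavy chain genes are similar in sequence and reads shared between them are divided by probability. Over all libraries *Myh4* led in 32, *Myh1* in 79, *Myh7* in 26 and *Myh2* in 4, with summed values that are small in most of them.

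**Figure D4:**
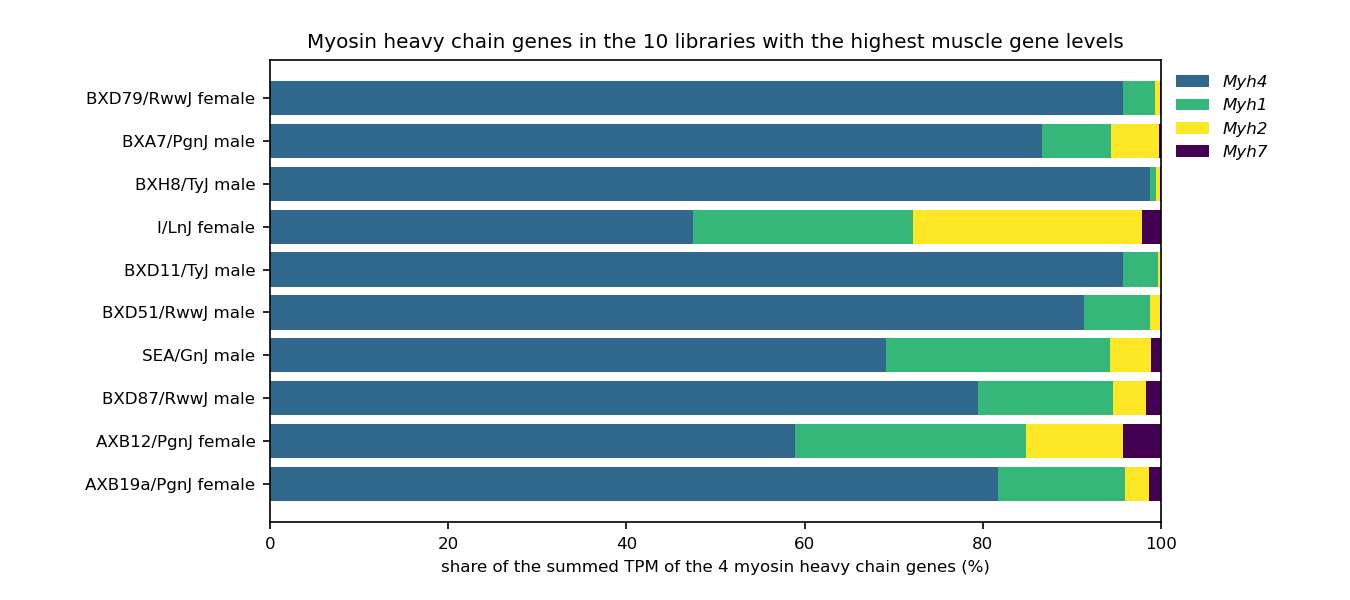
Share of each of 4 myosin heavy chain genes in their summed TPM (horizontal axis, percent) in the 10 libraries with the highest median TPM over the 37 genes, from the highest at the top. *Myh4* takes the largest part of each bar, from 47.4% in I/LnJ female to 98.8% in BXH8/TyJ male, and I/LnJ female has the largest part of *Myh2*, 25.7%.

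The slow genes stayed low even in the libraries with high muscle gene levels. The 6 slow genes had a median highest value of 7.97 TPM, against 1459 TPM for the 12 fast genes, although medians over all libraries were closer, at 0.178 TPM for slow and 0.474 TPM for fast genes. In BXD79/RwwJ female the fast genes summed to 19176 TPM and the slow genes to 29.2 TPM, which is a slow share of 0.152%. This share was 0.129% in BXH8/TyJ male, 0.197% in BXD11/TyJ male, 0.411% in BXA7/PgnJ male, 4.38% in I/LnJ female and 4.41% in AXB12/PgnJ female. It sets 6 slow genes against 12 fast genes, some of which, *Atp2a1* and *Pvalb* among them, have no counterpart in the slow list. *Tnnt3* exceeded its slow counterpart *Tnnt1* by 695 times in BXD79/RwwJ female and by 16.8 times in I/LnJ female. *Tnnc2* exceeded *Tnnc1*, which the heart also uses, by 370 times in BXD79/RwwJ female, 655 times in BXH8/TyJ male and 8.75 times in AXB12/PgnJ female.

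*Tnnt1* and *Tnnc1*, like *Actn2*, peaked outside the libraries with the highest muscle gene levels. *Tnnt1* was highest in the male and the female of BXD40/TyJ, at 19.8 and 12.1 TPM, ahead of I/LnJ female at 11.5 TPM, and BXD40/TyJ is not among the 10 libraries above. *Tnnc1* was highest in BXD34/TyJ female, the shallow library whose label its Y-linked genes contradict, at 9.07 TPM, followed by BXD56/RwwJ female at 7.78 TPM and I/LnJ female at 6.13 TPM.

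I/LnJ female had a mix of its own. It held the highest *Myh2* at 22.1 TPM, the highest *Myl3*, the light chain of slow fibres and heart ventricle, at 17.8 TPM against 2.90 TPM in the next library, and the highest *Sln*. *Mb*, the oxygen store myoglobin, was 61.99 TPM or 60.3% of *Ckm* there, and 3.47% of *Ckm* in BXD79/RwwJ female. *Myh8*, the perinatal myosin heavy chain, was 42.6 TPM in I/LnJ female, its highest value over all libraries, where the median was 0.145 TPM. The 9 mammary epithelium markers summed to 2265 TPM in this library, with 631 TPM of *Krt18*, against a female median of 582 TPM. BXH8/TyJ male was the opposite case for *Mb*, at 1.54 TPM or 0.342% of *Ckm*.

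*Sln* was almost undetected. Of the female libraries 61, and of the male libraries 73, had a count of 0. Where present, it had 99 counts in I/LnJ female (95% Poisson interval 80.5 to 121), 10 in BXD79/RwwJ female (4.80 to 18.4), 5 in AXB19a/PgnJ female, 3 in BXD56/RwwJ female, 2 in 129X1/SvJ female and 1 each in AXB12/PgnJ female and BXD24/TyJ-Cep290<rd16>/J male. In TPM these were 3.96 in I/LnJ female, 0.352 in BXD79/RwwJ female and 0.171 or less in the others. Counts were thus seen in 7 libraries, 6 of them female. A count of 0 allows up to 0.479 CPM in the shallowest female library and 0.255 CPM in the shallowest male library, and these limits and intervals cover counting error only. Of the 7 libraries, 129X1/SvJ female had a median of 0.195 TPM over the muscle genes and the other 6 were among the first 12.

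*Atp2a1* and *Ryr1* were present wherever the muscle genes were high, and *Sln* was not. In the 10 highest libraries *Atp2a1* stood at 37.3% to 104.2% of *Ckm*, and *Ryr1* at 2.02% to 6.55% of *Ckm*. *Ryr1* was 3.02% to 6.98% of *Atp2a1* in these libraries. *Sln* was 10.3% of *Atp2a1* in I/LnJ female, 0.504% in AXB19a/PgnJ female, 0.0791% in AXB12/PgnJ female, 0.0228% in BXD79/RwwJ female and 0 in the other 6. *Ryr1* kept a low level everywhere, from 0.0786 to 46.7 TPM with a median of 0.288, while *Atp2a1* was 0 at its lowest, 0.192 TPM at its median and 1548 TPM at its highest.

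The relation of these 3 genes with *Acta1* and with *Ucp1* was tested within each sex, as 12 correlations over 67 female or 74 male libraries, which are separate mice of related strains. *Acta1* belongs to the same muscle list and shares the few high libraries with *Atp2a1* and *Ryr1*, so a positive relation was likely before the test. Sex is that of the label, so BXD34/TyJ, BXD69/RwwJ and NZW/LacJ male, whose Y-linked genes go against it, were kept in these tests. In males *Ryr1* followed *Acta1* with r of 0.70 (adjusted p = 4e-05) and rho of 0.55 (adjusted p = 0.00012, two-sided permutation tests), and r was 0.66 without the 2 libraries farthest from the *Acta1* median. In females these were 0.55 (adjusted p = 4e-05), 0.35 (adjusted p = 0.0107, permutation tests) and 0.38. *Atp2a1* followed *Acta1* in males with r of 0.60 (adjusted p = 4e-05), rho of 0.35 (adjusted p = 0.00579, permutation tests) and r of 0.58 without the 2 farthest libraries. In females r was 0.39 (adjusted p = 0.00387) but rho was 0.04 (adjusted p = 0.82, permutation tests), and without the 2 farthest libraries r fell to 0.23 with an adjusted p of 0.0918 by permutation test, so the female relation rests on those libraries. *Sln* gave r of 0.39 in females (adjusted p = 0.00878), rho of 0.38 (adjusted p = 0.00324, permutation tests) and 0.30 without the 2 farthest libraries, with counts in 6 libraries, and r of 0.16 in males (adjusted p = 0.197 by permutation test), where 1 library had a count. In the permutation tests with an adjusted p of 4e-05 or 0.00012, no permutation reached the observed value. The number of permutations therefore limits these p-values.

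With *Ucp1*, the uncoupling protein of brown and beige fat, the signs were negative or the test did not pass. *Ryr1* gave r of -0.31 and rho of -0.44 in females (adjusted p = 0.0142 and 0.00186, permutation tests), and r of -0.26 and rho of -0.29 in males (adjusted p = 0.0475 and 0.0234, permutation tests). Without the 2 libraries farthest from the *Ucp1* median, r was -0.27 in females and -0.26 in males. With log2(TPM + 1) these values of r were -0.24 and -0.22 and missed the threshold (adjusted p = 0.0821 and 0.103, permutation tests). *Atp2a1* gave r of -0.12 in females and -0.23 in males (adjusted p = 0.428 and 0.0739, permutation tests), and without the 2 farthest libraries the male value passed, at -0.26 (adjusted p = 0.0477, permutation test). *Sln* gave -0.07 and 0.06 (adjusted p = 0.657 for both, permutation tests). With *Ckm* as the reference, chosen after the values were seen, r of *Atp2a1* was 0.95 in females and 0.96 in males, and r of *Ryr1* was 0.87 and 0.88. These values rest on the few high libraries that the genes share and are given without a test.

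The sexes were compared in the 59 strains with both, with strain in the model, by edgeR's quasi-likelihood test. Of the 37 genes, 27 passed the filter on low counts and were tested. Those left out were *Myh4*, *Myl2*, *Myl3*, *Tnni1*, *Myoz1*, *Myot*, *Tcap*, *Xirp2*, *Sln* and *Ckmt2*. Higher in females were 2 genes, against 28.4% of all 16765 genes tested, and lower in females were 3, against 29.8% of all genes. Over all genes that is 4759 higher and 4988 lower, a split that became 7410 and 2774 with scaling by library totals, which moved the median of all genes to 0.12, and 5397 and 2850 with limma on log2(TPM + 0.1). With no filter, so that all 37 were tested, 5 were higher against 15% and 3 lower against 16.3% of all genes. The median log2FC, female against male, was -0.03 over the 27 genes and 0.01 over all genes.

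*Mb* had the largest log2FC of the 27 genes in this fit. In females it was 0.541 TPM at its lowest, 1.91 at its median and 70.9 at its highest, and in males 0, 0.216 and 59.6 TPM. It was higher in the female in 51 strains and higher in the male in 8. The ranges overlapped, and the log2FC was 2.82 (SE 0.41, adjusted p = 4.3e-08, by Benjamini-Hochberg over all genes in edgeR's quasi-likelihood test). All 9 mammary epithelium markers were higher in females in the same fit. Over all libraries by label, strains with 1 sex included, their sum was 1.70 to 4572 TPM in females and 0.380 to 554 TPM in males. Spearman's rho of *Mb* with this sum was 0.54 over all libraries. The sexes are pooled in this rho and differ in both quantities, so it does not show whether a relation holds within a sex. The part of these cells in the *Mb* difference was not tested.

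*Myl1*, *Casq1* and *Pvalb* were lower in females. *Myl1* was 9.06 TPM at its lowest, 90.3 at its median and 1929 at its highest in females, and 36.7, 123.2 and 672 TPM in males. Of 59 strains, 46 had the lower value in the female, and the log2FC was -0.52 (SE 0.15, adjusted p = 0.0023, same test). *Casq1*, the calcium store protein of the sarcoplasmic reticulum, had medians of 2.49 TPM in females and 4.77 TPM in males, was lower in the female in 42 strains and had a log2FC of -0.89 (SE 0.26, adjusted p = 0.0027). *Pvalb*, the calcium buffer parvalbumin of fast fibres, had medians of 0.165 and 0.946 TPM, was lower in the female in 41 strains and had a log2FC of -1.46 (SE 0.53, adjusted p = 0.016). All 5 adipocyte markers were lower in females in the same fit. Over all libraries by label, strains with 1 sex included, their sum was 5445 to 61550 TPM in females and 12048 to 63720 TPM in males. Spearman's rho with this sum was 0.55 for *Myl1*, 0.51 for *Casq1* and 0.37 for *Pvalb*. The 2 endothelium and 3 macrophage markers were all lower in females too, and rho with their sums was 0.57 and 0.43 for *Casq1*, 0.40 and 0.41 for *Pvalb* and 0.21 and -0.02 for *Myl1*. The part of any of these cells in the differences was not tested. The rho values pool the sexes, which differ in these genes and markers, so they do not show whether a relation holds within a sex. Of the other lists, smooth muscle had 4 of 4 markers higher in females, cardiac muscle 2 of 2 tested higher, fibroblast 1 of 2 higher, Schwann cell 2 of 3 lower and brown adipocyte 0 of 4 called, against 28.4% higher and 29.8% lower over all genes.

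*Tnnc1* was the other gene higher in females, at 0.794, 2.25 and 7.78 TPM (lowest, median and highest) against 0.530, 1.84 and 3.86 TPM in males. Its log2FC was 0.31 (SE 0.11, adjusted p = 0.017), and 36 of 59 strains had the higher value in the female. *Myh7* was close to the threshold, with medians of 0.184 TPM in females and 0.127 TPM in males and a log2FC of 0.47 (SE 0.21, adjusted p = 0.054). It was higher in the female in 42 strains. With NZW/LacJ left out, the strain whose male goes against its label, *Myh7* passed the threshold as higher in females.

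*Ckm*, *Atp2a1*, *Ryr1* and *Acta1* had no difference past the threshold in this fit. *Ckm* was 0.0710 TPM at its lowest, 0.282 at its median and 2041 at its highest in females and 0.0549, 0.271 and 452 TPM in males, with a log2FC of -0.10 (SE 0.44, adjusted p = 0.85). *Atp2a1* had medians of 0.213 TPM in females and 0.174 TPM in males and a log2FC of -0.25 (SE 0.66, adjusted p = 0.76), and *Ryr1* had 0.301 and 0.281 TPM and -0.25 (SE 0.25, adjusted p = 0.39). *Acta1* had medians of 11.5 and 15.5 TPM and a log2FC of -0.69 (SE 0.37, adjusted p = 0.10). DESeq2 with the same block called *Acta1* lower at -0.73 (adjusted p = 0.014). For *Ckm* and *Atp2a1* the standard error exceeds the difference. Of the 44 other muscle genes, 31 were tested, 3 were higher in females (*Jph2*, *Fbxo32* and *Stac3*) and 5 lower (*Casq2*, *Pln*, *Jph1*, *Dmd* and *Myl4*), against the same 28.4% and 29.8% of all genes, the largest being *Fbxo32*, a ubiquitin ligase of muscle atrophy, at 0.90 (SE 0.091) and *Jph1*, which joins the membranes of the calcium release site, at -0.72 (SE 0.14).

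With strain left out of the model, the comparison changed with 1 strain. With no replicate block in the same 59 strains, 11 of the 27 genes were higher in females (*Eno3*, *Ldb3*, *Mb*, *Mybpc1*, *Myh7*, *Neb*, *Pygm*, *Tnnc1*, *Tnnc2*, *Tnni2* and *Tnnt3*) and 0 lower, against 24.4% and 24.5% of all genes. After BXD79/RwwJ was left out of that fit as well, 1 gene (*Myh7*) was higher and 15 were lower, against 24.1% and 24.8% of all genes. *Ckm* went from a log2FC of 1.44 to -1.85, *Atp2a1* from 1.68 to -2.06 and *Ryr1* from 0.89 to -1.15 between these fits. *Mb* fell to 1.09 with no block (adjusted p = 0.032) and to 0.63 without BXD79/RwwJ as well (adjusted p = 0.21), and *Myl1* went to -0.06 (adjusted p = 0.84) and then -0.62 (adjusted p = 0.00081). With strain in the model and BXD79/RwwJ left out, 2 genes were higher and 4 lower, with *Pygm*, the muscle glycogen phosphorylase, as the added one at -0.46 (adjusted p = 0.015 in edgeR's quasi-likelihood test).

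**Figure D5:**
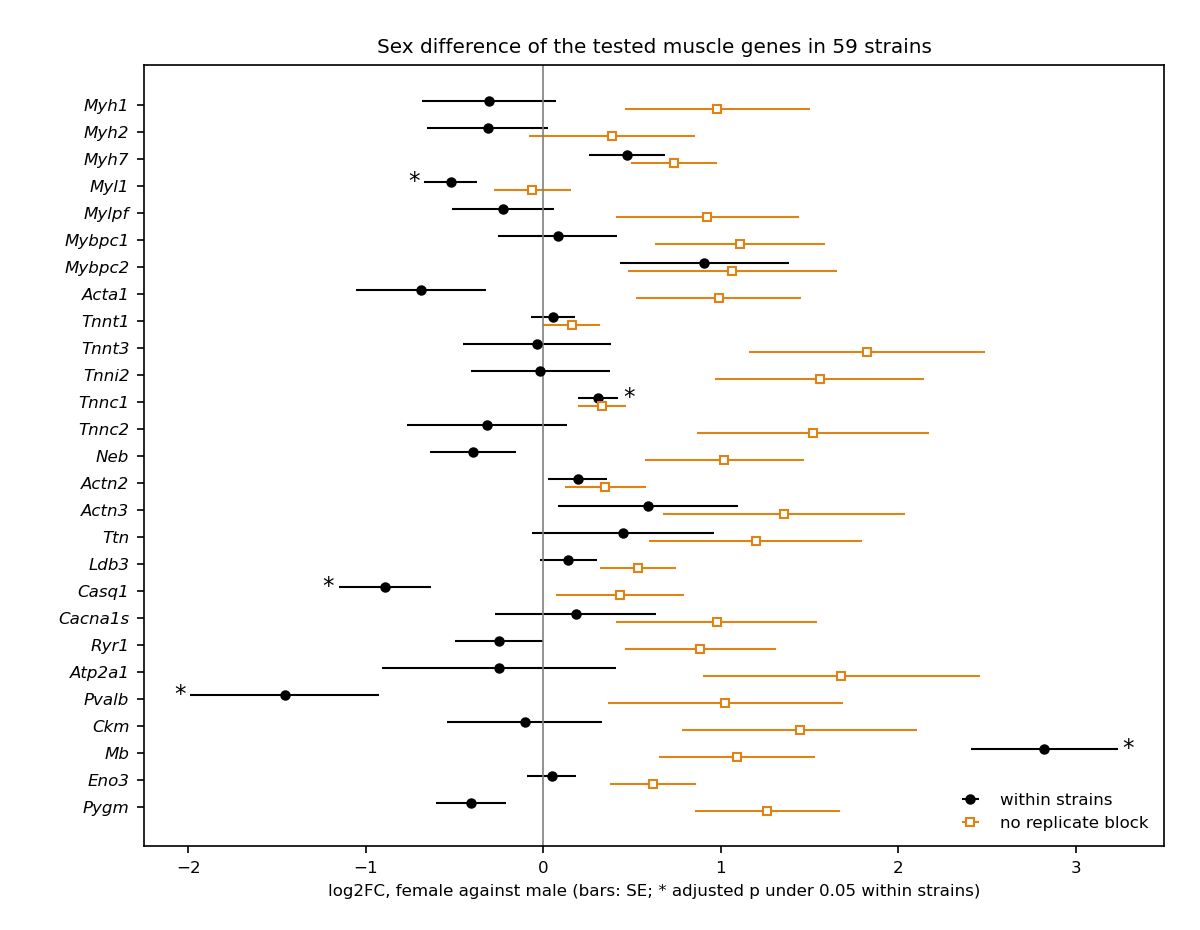
The log2FC of the 27 tested genes, female against male, over 59 strains (horizontal axis, bars are SE), with strain in the model as black circles and with no replicate block as open orange squares. Asterisks mark adjusted p under 0.05 with strain in the model: *Mb* and *Tnnc1* lie to the right, *Myl1*, *Casq1* and *Pvalb* to the left, and the squares of most genes lie to the right of their circles.

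The female and the male of a strain had related levels for some of the genes, as for a large part of all genes tested. Over 59 strains, Spearman's rho between the sexes passed an adjusted p under 0.05 as a positive relation for 14 of the 37 genes, against 48.7% of 16775 genes tested, and was negative past it for 0. The 2 shares are not alike, since the 37 include genes that failed the filter on low counts, while all genes outside the list passed it. All 14 are among the 27 members that passed, and 14 of 27 is close to the share over all genes. The relation is thus not particular to the list. With other settings the number was 14 with log2(TPM + 1) against 48.8% of all genes, 14 with log2 CPM against 53.9%, 14 without NZW/LacJ against 52.7% and 16 without BXD79/RwwJ against 48.4%. The median rho was 0.24 over the 37 genes, those with low counts included, and 0.29 over all genes. *Eno3* had the highest value, with rho of 0.46 (adjusted p = 0.0022, permutation test over 59 strains) and Pearson's r of 0.28 (adjusted p = 0.064, permutation test), or 0.44 without the 2 strains farthest from the female median. *Tnni2* followed with rho of 0.43 and r of 0.19 (adjusted p = 0.0040 and 0.18, permutation tests), or 0.33 without the 2 farthest strains. *Myl1* had rho of 0.43 and r of 0.29 (adjusted p = 0.0045 and 0.057, permutation tests), or 0.39 without the 2 farthest strains. *Tnnt1* had the highest Pearson's r, 0.39 (adjusted p = 0.0080, permutation test), with rho of 0.33 (adjusted p = 0.027, permutation test) and r of 0.42 without the 2 farthest strains. *Acta1* had rho of 0.34 and r of 0.32 (adjusted p = 0.021 and 0.032, permutation tests), or 0.31 without the 2 farthest strains.

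For *Ckm* and *Atp2a1* the relation was in the ranks alone. *Ckm* had rho of 0.35 (adjusted p = 0.020) and r of 0.06 (adjusted p = 0.69, permutation tests), or 0.13 without the 2 farthest strains. *Atp2a1* had rho of 0.31 (adjusted p = 0.037) and r of 0.14 (adjusted p = 0.34, permutation tests), or 0.28 without the 2 farthest strains. *Ryr1*, with rho of 0.23 (adjusted p = 0.13, permutation test) and r of 0.03, did not pass, nor did *Myh4* with rho of 0.10 (adjusted p = 0.49, permutation test) or *Mb* with rho of -0.06 (adjusted p = 0.67, permutation test).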

How the data were processed

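RNA-seq libraries of iWAT were assigned to sex and strain by their labels. Per the labels and methods, the authors sequenced stranded mRNA libraries of total RNA, quantified transcripts with kallisto (0.46.1 and mm10 in the submitters' processing notes) and an Ensembl transcriptome, and summed them by gene using tximport. Of the deposited estimated counts (expected counts), 30.3% were not whole, and all were rounded here. The deposited TPM values, which the authors corrected for length and total, carry no depth. Of 36558 genes, 35856 matched a symbol. Gene positions are those of GENCODE M21 on GRCm38, and promoters come from the RefSeq table of GRCm38.p6.

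The members, gene lists and rules were chosen with earlier results of these data known. All members are named, sex statistics are given in full for *Acta1*, *Ckm*, *Myh7*, *Atp2a1* and *Ryr1* and for every member past the threshold, and libraries are named for the 10 highest medians. The 10 genes most like *Acta1* had a mean of at least 1 CPM. Some further genes and libraries (*Tnnt1*, *Mybpc2*, BXD40/TyJ, BXD43/RwwJ) were singled out after their values were seen.

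Genes were kept by filterByExpr, scaled by TMM and tested by edgeR 4.0.16 (glmQLFit and glmQLFTest, R 4.3.3) in 59 strains. The model, strain plus sex, is that of the study, which fitted it with limma; edgeR was used here because the values are counts. P-values were adjusted by Benjamini-Hochberg over all genes and called under 0.05. The pairing comes from the strain label, since both mice of a pair are of 1 inbred line. Each library is 1 mouse. With strain in the model, p-values measure the spread of the female-male difference over strains, and with no block the spread between mice. Correlations used log2(TPM + 0.1) and 100000 permutations, and those between the sexes were adjusted over all 16775 genes, in place of the planned adjustment over the members. The fits were tested on simulated data. Alternatives used DESeq2 1.42.0, limma 3.58.1, other scalings, filters and samples. The labels name no batch. Other steps ran in Python 3.11.15 (scipy 1.17.1, pandas 2.3.3, numpy 2.4.6). A result that needs 1 gene of a marker list is not reported here.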

Additional observations from a re-analysis of the deposited data

How the results depend on the processing

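With the replicate block and edgeR, the counts of 2 genes higher and 3 lower in females were within 1.5 times under RLE size factors, library totals, totals without the members and without NZW/LacJ. Genes higher in females numbered 5 with DESeq2 and with no filter, and 4 with at least 10 counts in 10 libraries and with limma on either log2(TPM + 1) or log2(TPM + 0.1). Genes lower in females numbered 5 with DESeq2 and 1 with limma-voom, where *Casq1* and *Pvalb* missed the threshold, as *Pvalb* did with limma on log2(TPM + 1). Over all 16765 genes DESeq2 called 4877 higher and 5299 lower, and limma-voom 4729 and 4984. With no filter the added genes were *Myl3*, *Sln* and *Tnni1*, and the *Sln* value (log2FC 1.55, adjusted p = 0.021 in edgeR's quasi-likelihood test) includes the 99 counts of I/LnJ female. With no replicate block, 11 genes were higher and 0 lower in the matched strains, and 10 higher and 0 lower over all libraries. Without BXD79/RwwJ and with no replicate block, 1 was higher and 15 lower, a setting chosen after seeing the data.

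Without the block the direction turned for *Acta1* (0.99 in matched strains, 0.81 in all libraries), *Casq1* (0.43 and 0.28), *Ryr1* (0.89 and 0.77), *Atp2a1* (1.68 and 1.53), *Pvalb* (1.03 and 0.79) and *Ckm* (1.44 and 1.28, all log2FC). In the matched strains it also turned from negative to positive for *Myh1*, *Myh2*, *Mylpf*, *Tnnt3*, *Tnni2*, *Tnnc2*, *Neb* and *Pygm*. Of the tested genes with a negative log2FC in the main fit, only *Myl1* stayed negative. *Ckm* was also 0.0145 with library totals and 0.0101 with limma-voom. Leaving out each of 12 strains drawn by a fixed seed gave 2 to 3 genes higher and 3 to 3 lower. *Myh7* crossed the threshold without 3 of these strains, and also without NZW/LacJ and with DESeq2, limma, library totals and no block.

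Muscle levels were found in 12 libraries at a median of 5 TPM, 3 at 20 TPM and 11 at 10 TMM-scaled CPM. CPM is not corrected for transcript length, so 10 CPM is another threshold than 10 TPM. The number of genes related between the sexes of a strain was 14 to 16 at every setting tried. For *Atp2a1* with *Acta1* in females, r of 0.39 became 0.23 without the 2 libraries farthest from the median. Depth limits *Sln*, *Ckmt2*, *Myot*, *Myl2*, *Xirp2*, *Myoz1*, *Myl3* and *Myh4* most, each with fewer than 3 counts in 70 or more libraries.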
